A study of Homo sapiens with 15 samples.

Results

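The 34 genes described here are interferon-stimulated genes, taken by their symbols from the 43388 genes counted in each library, and all 34 were found. They include the IFIT, OAS, IFITM and MX families, the RNA sensors DDX58 and IFIH1, the transcription factors STAT2, IRF1, IRF7 and IRF9, and further antiviral genes. RNA was sequenced from A549 cells, a lung epithelial line derived from a human adenocarcinoma. All cells were held for 72 hours in hyperoxia (95% O2) or in normoxia (21% O2), and 10 libraries came from cells that received all-trans retinoic acid (ATRA, 1e-05 mM) or its ethanol vehicle 24 hours earlier.

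The groups were hyperoxia with vehicle (n = 2 libraries), normoxia with vehicle (n = 2), hyperoxia with ATRA (n = 3) and normoxia with ATRA (n = 3). Another 4 libraries, 2 in hyperoxia and 2 in normoxia, carry neither vehicle nor ATRA in their labels and are called untreated here. All libraries came from a single cell line labelled as wild type, and the labels do not say whether libraries of a group were separate cultures, so p-values measure only the spread between these libraries. Levels below are deposited read counts per gene, scaled here to the library's size as CPM, and in bulk RNA fewer cells of a kind and less RNA per cell cannot be told apart.

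Interferons are secreted proteins that cells release on sensing viral nucleic acid. Type I and type III interferons bind receptors coupled to the kinases JAK1 and TYK2, which phosphorylate STAT2 and other signal transducers. A complex that holds STAT2 and IRF9 binds the interferon-stimulated response element (ISRE), whereas type II interferon acts through a different site (GAS). In airway epithelium many interferon-stimulated genes are kept at a low level and rise strongly after infection.

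The ISRE core was searched for as GAAANNGAAA and the GAS site as TTCNNNGAA. Both strands were searched, in a window from 250 bases before to 50 bases after a start of each gene. RefSeq (GRCh38.p14) windows were at hand for 27 of the 34 genes. IFIT2, OAS2, OASL, IFITM2, MX2, IRF7 and TRIM22 had none. The windows of IFI27 (from base 94110486) and ISG20 (from base 88638766) lie downstream of the first base of the gene (94105894 and 88635632). The ISRE core was in 17 of the 27 windows (63.0%) and in 3.57% of all 35116 windows, and the GAS site was in 7 (25.9%) and in 7.66% of all. In 3 windows a match of each motif overlapped the other. The sequences below, 250 bases upstream of the start, are those of the 4 genes called in a comparison that had the largest fold changes among genes with a window, 5′ to 3′ on the gene's strand, with either motif in capitals.

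OAS1 (chr12:112906712-112906961, plus strand): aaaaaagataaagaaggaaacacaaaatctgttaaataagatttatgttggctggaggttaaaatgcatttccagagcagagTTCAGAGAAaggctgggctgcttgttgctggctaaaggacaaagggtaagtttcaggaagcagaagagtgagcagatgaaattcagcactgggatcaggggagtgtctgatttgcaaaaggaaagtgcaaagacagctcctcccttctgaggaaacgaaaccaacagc

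OAS3 (chr12:112938224-112938473, plus strand): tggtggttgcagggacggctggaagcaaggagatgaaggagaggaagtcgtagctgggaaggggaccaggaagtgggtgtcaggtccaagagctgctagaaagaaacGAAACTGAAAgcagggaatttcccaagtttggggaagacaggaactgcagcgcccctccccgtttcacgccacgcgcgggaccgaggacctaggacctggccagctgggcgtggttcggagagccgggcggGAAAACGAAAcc

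SAMD9 (chr7:93117980-93118229, minus strand): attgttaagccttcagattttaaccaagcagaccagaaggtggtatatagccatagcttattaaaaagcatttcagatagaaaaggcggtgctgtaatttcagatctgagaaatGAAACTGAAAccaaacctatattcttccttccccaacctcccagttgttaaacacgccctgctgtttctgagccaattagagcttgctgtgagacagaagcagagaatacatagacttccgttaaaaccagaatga

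UBE2L6 (chr11:57567936-57568185, minus strand): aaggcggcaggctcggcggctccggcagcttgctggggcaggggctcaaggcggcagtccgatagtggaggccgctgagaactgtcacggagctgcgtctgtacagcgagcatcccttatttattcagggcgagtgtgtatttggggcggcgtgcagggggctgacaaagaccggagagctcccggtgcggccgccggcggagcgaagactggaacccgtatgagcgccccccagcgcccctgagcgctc

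The capitals in OAS1 mark a GAS match that begins 168 bases before the start. OAS3 held 2 ISRE cores, beginning 143 and 12 bases before it, SAMD9 held 1 at 136 bases, and UBE2L6 held neither motif. IRF1, not printed, held a GAS match at 124 bases. A match is a string of letters and not a bound site, and its absence says only that these letters are not in the window.

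Of the 34 genes, 24 had enough counts to be tested and 10 did not. BST2, MX2 and IFI44L had 0 counts in all 15 deposited libraries, and IFI44 and RSAD2 had 1 count each over all of them. OAS2 had 6 counts in all, and IFI27 had at most 4 in a library. OASL had at most 10. In the 10 vehicle and ATRA libraries MX1 had between 1 and 9 counts and ISG15, the ubiquitin-like modifier, between 0 and 13. A count of 0 allows up to 3 counts, or 0.535 to 1.14 CPM in these libraries by counting error alone, so lower expression of these genes was not detectable. Of the interferons themselves 9 genes were looked at and the others were not, and most of the 9 were also at or near the floor. IFNB1, IFNK, IFNG, IFNL1, IFNL2 and IFNL3 had 0 CPM in all 10 libraries, and IFNA1 and IFNA2 reached at most 1.42 and 0.355 CPM. IFNE, an epithelial type I interferon, passed the count filter and ranged from 0.237 to 5.59 CPM. In untreated cells it had 0 counts in each hyperoxia library and 14 and 12 counts in normoxia. Its log2 fold change there was -6.57, and it was called lower. The log2 fold change was -1.27 with vehicle and -0.16 with ATRA, neither of them called. Hyperoxia untreated replicate 1 stood apart, as described below, and no value without it is given for IFNE.

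**Figure D1:**
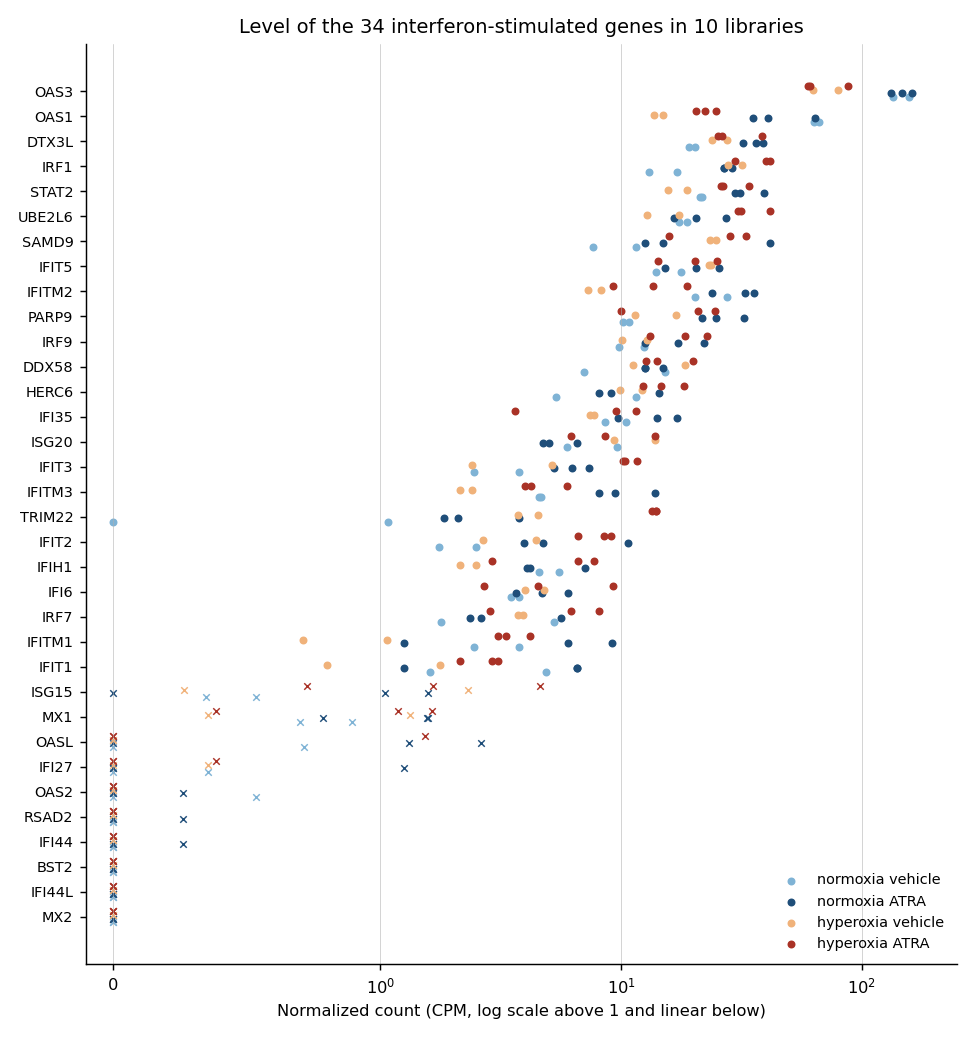
Normalized counts (CPM, log axis above 1 and linear below) of the 34 interferon-stimulated genes, with 1 point per library in the 10 vehicle and ATRA libraries, coloured by group, and crosses for the 10 genes that did not pass the filter on low counts. OAS3 reached 162 CPM in 1 normoxia library with ATRA, whereas BST2, MX2 and IFI44L lay at 0 throughout.

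Per kilobase of the canonical transcript, the highest mean levels over the 10 libraries were those of OAS1 (22.4 CPM per kb), IFITM2 (19.6), UBE2L6 (19.2) and OAS3 (16.4). Next were IFITM3 (9.70), IRF9 (9.32), IFI35 (8.44) and IRF1 (7.97). The ranges over libraries overlapped for all of these, for example 8.39 to 40.6 CPM per kb for OAS1 and 10.5 to 34.1 for UBE2L6. Among the genes tested the lowest was IFIT1, at 0.734 CPM per kb. The other IFIT genes, which encode proteins that bind viral RNA, had 1.62 (IFIT2), 2.71 (IFIT3) and 4.94 (IFIT5) CPM per kb.

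The libraries had between 2642377 and 5605072 counts on genes. The summed level of 10 markers of A549 and other epithelial cells was 11696 to 16700 CPM in the 5 hyperoxia libraries and 18068 to 21736 CPM in the 5 normoxia libraries with vehicle or ATRA. That of 8 leukocyte markers was 67.4 to 100.5 CPM in hyperoxia and 24.1 to 49.6 CPM in normoxia, and that of 4 plasmacytoid dendritic cell markers, of which IL3RA alone was detected, was 14.9 to 34.5 and 4.71 to 6.64 CPM. The part of these measures in the oxygen differences below was not tested. SFTPA1, SFTPA2, VWF, DCN, CD3E, CLEC4C, LILRA4 and TLR7 were at 0. Other genes of these lists were detected. The summed level of 7 alveolar type II markers was 0.349 to 8.35 CPM, and that of 4 endothelial markers 0 to 6.29 CPM. CDH5 had 20, 6 and 10 counts in normoxia with ATRA and 0 in hyperoxia with ATRA, and was called lower (log2 fold change -6.75). COL1A1 was called lower in hyperoxia with vehicle (-3.30). The part of these genes was not tested either. The leukocyte gene PTPRC had 1 count over all 10. The hyperoxia ATRA replicate 1 library stood apart on the second principal component (83.0 from the median, against at most 27.3 for the others). The hyperoxia untreated replicate 1 library had a count on only 12657 genes, against 16465 to 20108 in the other assigned libraries. Results of untreated cells, other than that of IFNE, are therefore given with and without it.

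Hyperoxia with vehicle against normoxia with vehicle asks what oxygen did to these genes without retinoid. The gene OAS1, which senses double-stranded RNA and makes the oligoadenylates that activate RNase L, fell most clearly, together with its neighbour OAS3 and with IFITM2, a membrane protein that hinders virus entry. TRIM22 and SAMD9, both of them antiviral factors, and IRF1, a transcription factor of the interferon response, were higher. A gene was called when its Benjamini-Hochberg adjusted p in the quasi-likelihood test of edgeR was under 0.05. Of the 24 genes tested, 3 were called higher (12.5%) and 3 lower (12.5%), beside 8.68% and 8.81% of all 14957 genes tested. The shares of the 24 were thus near those of all genes, and each rests on 3 genes. The median log2 fold change of the 24 was 0.23, against 0.01 for all genes, with 14 positive and 10 negative values.

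OAS1 (chromosome 12, 112906962 to 112933219) had 14.9 and 13.7 CPM in hyperoxia with vehicle and 63.2 and 66.3 CPM in normoxia with vehicle. With ATRA it had 24.9, 20.4 and 22.3 CPM in hyperoxia and 40.6, 35.5 and 63.99 CPM in normoxia. All 5 hyperoxia libraries lay below all 5 normoxia libraries. The share of all genes that separate in this way is not given, here or where groups are said not to overlap below. The log2 fold change for oxygen was -2.18 with vehicle (SE 0.27, edgeR adjusted p = 5.61e-06) and -1.04 with ATRA (SE 0.22, edgeR adjusted p = 0.00125). Both calls held in every alternative and with each library left out in turn. Where leaving out a library left a single library in a group, here and below, that library was assumed to vary like those of the other groups in the fit.

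OAS3 (chromosome 12, 112938474 to 112973251) makes the same oligoadenylates and was the most abundant of the 34 genes in CPM. It had 80.0 and 62.7 CPM in hyperoxia with vehicle and 135 and 157 CPM in normoxia with vehicle. With ATRA the values were 61.2, 87.7 and 59.8 CPM in hyperoxia and 162, 132 and 147 CPM in normoxia. The oxygen groups did not overlap with either treatment. The log2 fold change was -1.05 with vehicle (SE 0.19, edgeR adjusted p = 0.000380) and -1.10 with ATRA (SE 0.16, edgeR adjusted p = 2.30e-05), and these calls too held in every alternative. The cytosolic RNA sensors DDX58 (RIG-I) and IFIH1 (MDA5) had log2 fold changes of 0.36 and -1.12 with vehicle and were not called (edgeR adjusted p = 0.623 and 0.349).

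IFITM2 (chromosome 11, 307816 to 309395) had 8.26 and 7.29 CPM in hyperoxia with vehicle and 20.3 and 27.7 CPM in normoxia with vehicle. With ATRA it had 18.9, 9.24 and 13.5 CPM in hyperoxia and 32.8, 23.9 and 35.7 CPM in normoxia. The 5 hyperoxia libraries were again all below the 5 normoxia libraries. The log2 fold change was -1.64 with vehicle (SE 0.36, edgeR adjusted p = 0.00231) and -1.12 with ATRA (SE 0.28, edgeR adjusted p = 0.00559). When the untreated libraries entered the fit the adjusted p rose to 0.0760 and 0.103. The near copies IFITM1 and IFITM3 had log2 fold changes of -1.82 and -1.02 with vehicle and -0.63 and -1.14 with ATRA, none of them called (edgeR adjusted p between 0.0992 and 0.571). IFITM1 was called lower with vehicle when untreated libraries were pooled with the controls (-2.56, edgeR adjusted p = 0.0294), and IFITM3 when vehicle and ATRA libraries were fitted together with ATRA as a covariate (-1.11, edgeR adjusted p = 0.0234). The 3 IFITM genes are similar in sequence, so reads that fit several of them may be miscounted or lost.

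TRIM22 (chromosome 11, 5689790 to 5710863), a ubiquitin ligase that restricts viruses, had few reads. It had 4.53 and 3.73 CPM in hyperoxia with vehicle, and 0 and 1.07 CPM (0 and 6 counts) in normoxia with vehicle. With ATRA it had 13.98, 13.5 and 14.01 CPM in hyperoxia against 1.84, 3.77 and 2.10 CPM in normoxia. The oxygen groups did not overlap at either treatment, and the hyperoxia ATRA libraries were the highest. The log2 fold change was 2.59 with vehicle (SE 0.82, edgeR adjusted p = 0.0309) and 2.43 with ATRA (SE 0.57, edgeR adjusted p = 0.00327). The call with ATRA held in every alternative. The call with vehicle was lost without hyperoxia vehicle replicate 1 (adjusted p = 0.129), without hyperoxia vehicle replicate 2 (0.086), without normoxia vehicle replicate 1 (0.217) and in the fit of 14 libraries (0.110), all from edgeR, and its log2 fold change ranged from 1.88 to 7.02 over the libraries left out.

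IRF1 (chromosome 5, 132481609 to 132490773) had 31.7 and 27.9 CPM in hyperoxia with vehicle and 17.1 and 13.04 CPM in normoxia with vehicle. Its log2 fold change was 1.00 (SE 0.27, edgeR adjusted p = 0.0120). SAMD9 (chromosome 7, 93099518 to 93117979), an inhibitor of poxvirus replication, had 23.5 and 24.9 CPM in hyperoxia with vehicle against 11.5 and 7.68 CPM in normoxia with vehicle. Its log2 fold change was 1.37 (SE 0.47, edgeR adjusted p = 0.0463). Neither gene overlapped between these groups. In the fit of 14 libraries neither was called (edgeR adjusted p = 0.0624 for IRF1 and 0.153 for SAMD9). SAMD9 was also not called in the untreated libraries (log2 fold change 0.99, edgeR adjusted p = 0.224). With ATRA as a covariate it was not called either (0.62, edgeR adjusted p = 0.132). Each call was also lost when single libraries were left out. The adjusted p of IRF1 then reached 0.209 without normoxia vehicle replicate 2, and was 0.128 and 0.0570 without hyperoxia vehicle replicates 1 and 2. That of SAMD9 was 0.338 without normoxia vehicle replicate 2, 0.0914 without normoxia vehicle replicate 1, 0.132 and 0.179 without hyperoxia vehicle replicates 1 and 2, and 0.0646 without hyperoxia ATRA replicate 3 (all from edgeR).

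**Figure D2:**
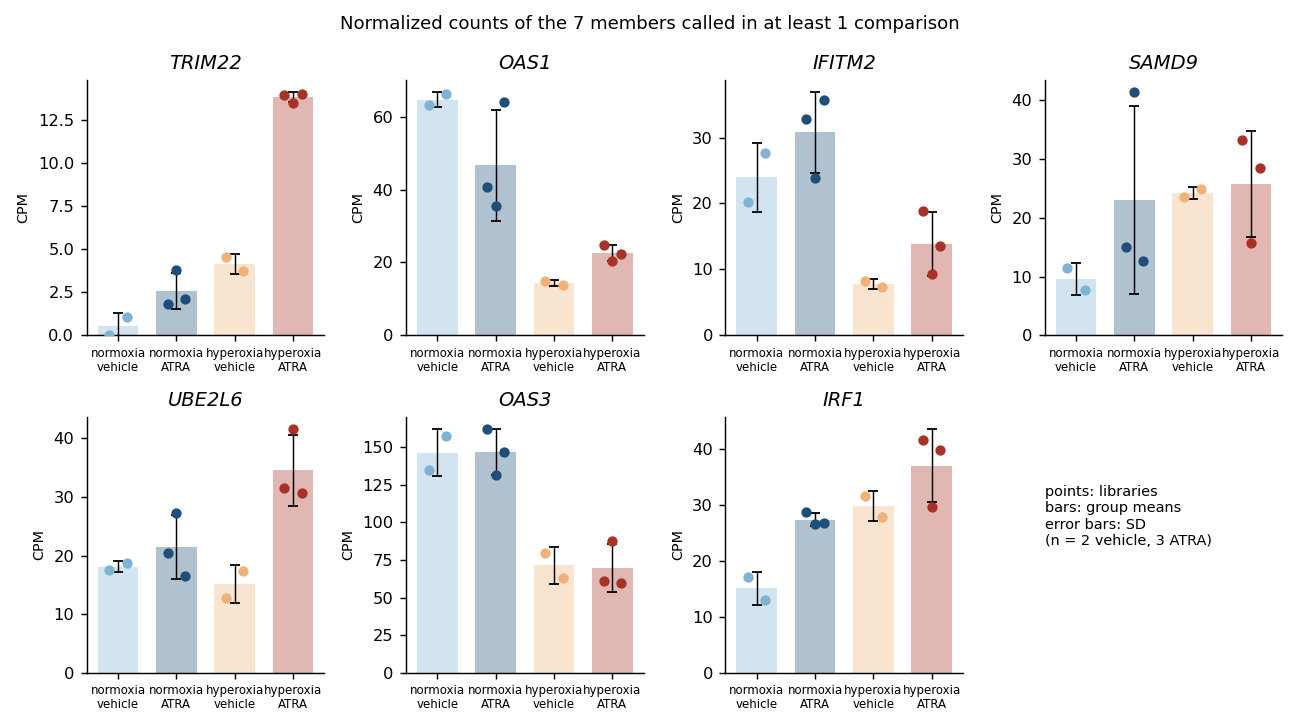
Normalized counts (CPM) of the 7 genes called in at least 1 comparison, with 1 point per library, bars for group means and error bars for the SD (n = 2 with vehicle, n = 3 with ATRA). OAS1, OAS3 and IFITM2 are lower in all 5 hyperoxia libraries than in all 5 normoxia libraries, and TRIM22 is highest in hyperoxia with ATRA, at 13.5 to 14.01 CPM.

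The other genes tested did not pass the threshold with vehicle. Among the IFIT proteins, which bind viral RNA, IFIT1, IFIT2, IFIT3 and IFIT5 had log2 fold changes of -1.22, 0.72, 0.28 and 0.55. STAT2, IRF7 and IRF9 had -0.30, 0.18 and 0.03. UBE2L6, an E2 enzyme for ISG15, and HERC6, a HECT-type ligase, had -0.25 and 0.45. PARP9 and DTX3L, whose proteins form a complex that modifies histones and viral proteins, had 0.45 and 0.40, while IFI6, IFI35 and ISG20 had 0.28, -0.32 and 0.55. The adjusted p of these genes lay between 0.295 and 0.971 (edgeR), and their standard errors between 0.27 and 1.00.

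In cells that received ATRA, hyperoxia against normoxia gave 2 genes called higher (8.33%) and 3 called lower (12.5%) of the 24, beside 11.4% and 11.3% of all genes. The lower genes were OAS1, OAS3 and IFITM2, as with vehicle. TRIM22 was higher, and so was UBE2L6, the E2 enzyme that conjugates ISG15. The median log2 fold change was 0.10, against 0.01 for all genes, and 13 values were positive. SAMD9 and IRF1 had log2 fold changes of 0.21 and 0.45 here (adjusted p = 0.733 and 0.139 from edgeR). SAMD9 varied among the normoxia ATRA libraries, at 14.9, 41.4 and 12.6 CPM, and was called only without the second of them (adjusted p = 0.0484 from edgeR).

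UBE2L6 (chromosome 11, 57551662 to 57567935) had 31.6, 41.6 and 30.6 CPM in hyperoxia with ATRA and 20.5, 27.3 and 16.5 CPM in normoxia with ATRA. With vehicle it had 12.8 and 17.4 CPM in hyperoxia and 17.5 and 18.8 CPM in normoxia. The 3 hyperoxia ATRA libraries were above the other 7. The log2 fold change for oxygen with ATRA was 0.69 (SE 0.24, edgeR adjusted p = 0.0478), a call that 14 of 17 alternatives lost, with adjusted p up to 0.211 without normoxia ATRA replicate 3. These included 8 of the 10 fits that left out a library, namely all except those without hyperoxia ATRA replicate 1 and normoxia ATRA replicate 2.

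The 4 untreated libraries gave a comparison of oxygen whose group means share no library with those above. Its p-values came from the fit of 14 libraries, so the spread and scaling behind them rested on the vehicle and ATRA libraries too. IRF1 and TRIM22 were called higher (8% of 25 genes tested) and OAS1, OAS3 and IFITM2 lower (12%), beside 7.57% and 7.58% of all 15339 genes tested in that fit. The OAS1 values were 13.6 and 19.2 CPM in hyperoxia and 56.4 and 85.4 CPM in normoxia, with a log2 fold change of -2.12 (SE 0.32, edgeR adjusted p = 0.000310). OAS3 had 87.7 and 78.2 CPM against 140 and 166 CPM, a log2 fold change of -0.88 (adjusted p = 0.00724 from edgeR). IFITM2 had 1.60 and 8.47 CPM against 18.5 and 23.0 CPM, a log2 fold change of -2.12 (adjusted p = 0.0210 from edgeR). In each of these 3 genes both hyperoxia libraries were below both normoxia libraries.

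IRF1 had 24.8 and 29.6 CPM in untreated hyperoxia against 9.56 and 14.6 CPM in untreated normoxia, a log2 fold change of 1.17 (adjusted p = 0.0213 from edgeR). TRIM22 had 6.39 and 4.23 CPM against 0.195 and 0.720 CPM, a log2 fold change of 3.51 (adjusted p = 0.0287 from edgeR). In both genes the hyperoxia libraries were the higher ones. Without hyperoxia untreated replicate 1 the calls of OAS1 (log2 fold change -1.88), OAS3 (-0.97), IRF1 (1.30) and TRIM22 (3.18) held, and that of IFITM2 was lost (-1.29, edgeR adjusted p = 0.0793). Without normoxia untreated replicate 1 the calls of IRF1 (edgeR adjusted p = 0.270), TRIM22 (0.266) and IFITM2 (0.0635) were lost, and without normoxia untreated replicate 2 those of TRIM22 (0.0791), IFITM2 (0.0941) and OAS3 (0.0510). The call of OAS1 held without each of the 4 libraries.

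The library that stood apart, hyperoxia untreated replicate 1, had a count on 12657 genes, against 18121 in its partner. It also differed from its partner in genes of the interferon response. The share of all genes that differ in this way is not given. This library had 0 CPM of STAT2, IRF9, IRF7, IFI35, IFIT1 and IFIT2, for which the partner had 16.9, 13.03, 3.91, 7.49, 1.95 and 5.86 CPM. In the same library MX1 had 16.2 CPM and ISG15 had 10.4, against 0.652 and 2.61 in the partner. PARP9 had 40.7 CPM and ISG20 had 22.97, against 12.4 and 6.84. Genes thus differed from the partner in both directions. With this library as the only one of untreated hyperoxia, 5 genes would be called higher and 9 lower, beside 14.5% and 29.1% of all genes in that fit, and IFIT2 would turn from a log2 fold change of 1.03 to -5.59.

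ATRA against vehicle asks what the retinoid did at each oxygen exposure. Most of the 24 genes had higher means with ATRA at both exposures, by small amounts that single genes rarely carried past the test. In normoxia 22 of the 24 log2 fold changes were positive and their median was 0.57, against 0.00 for all genes, of which 10.7% lay above that median. In hyperoxia 21 were positive and the median was 0.60, against 0.00 for all genes, of which 12.4% lay above it. In normoxia 0 genes were called higher and 0 lower by edgeR, beside 0.816% and 0.435% of all genes, and DESeq2 called 1, PARP9. An unadjusted p under 0.05 was found for 8 of the 24 (33.3%) and for 8.79% of all genes. In hyperoxia UBE2L6 was called higher (4.17%) and none lower, beside 1.52% and 0.695% of all genes, and 7 (29.2%) had an unadjusted p under 0.05, as had 13.5% of all genes. Genes that share regulation are not independent, and the counts of positive values carry no test. The count filter used all 10 libraries, so a gene could pass mainly through the ATRA libraries, and such genes tend to give positive values. IFIT1 had 3 to 14 counts in the vehicle libraries and 4 to 25 with ATRA, and IFITM1 had 4 to 21 and 4 to 35. The part of such genes in the medians was not tested.

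**Figure D3:**
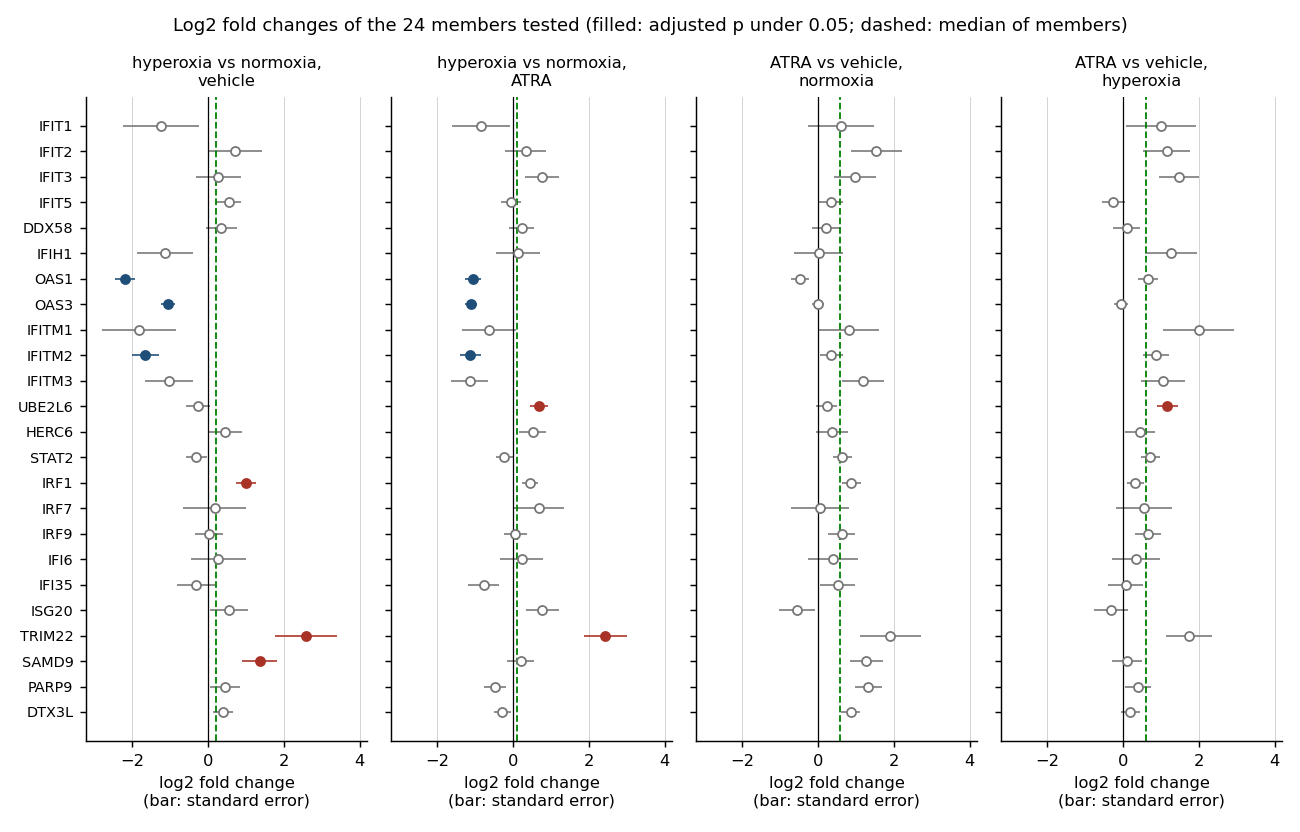
Log2 fold changes of the 24 genes tested in 4 comparisons, with bars for the standard error, filled points for an adjusted p under 0.05 from edgeR and a dashed line at the median of the 24. The medians are 0.23 and 0.10 for hyperoxia against normoxia, and 0.57 and 0.60 for ATRA against vehicle, where OAS3 lies at 0.00 in normoxia and -0.05 in hyperoxia.

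The mean log2 CPM of the 24 genes shows the same difference library by library. It was 3.76, 3.75 and 3.71 in normoxia with ATRA, and 3.74, 3.75 and 3.75 in hyperoxia with ATRA. With vehicle it was 3.18 and 3.25 in normoxia and 3.11 and 3.24 in hyperoxia. All 6 ATRA libraries were above all 4 vehicle libraries, and the oxygen exposures overlapped within each treatment. The limit given above for the count filter holds for these means as well. On the scale of the fit of 14 libraries the untreated libraries had 3.11 and 3.11 in normoxia and 3.36 in hyperoxia replicate 2, also below every ATRA library (3.70 to 3.76), while hyperoxia untreated replicate 1, with 7 of the 24 genes at 0, had 2.21.

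**Figure D4:**
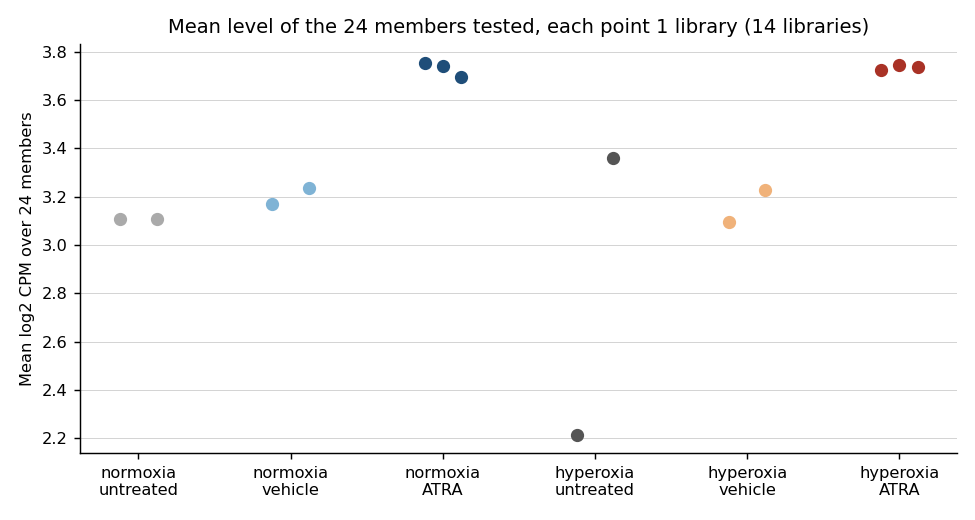
Mean log2 CPM over the 24 genes tested, with 1 point per library in 14 libraries and 6 groups. The 6 ATRA libraries lie between 3.70 and 3.76 and the 4 vehicle libraries between 3.10 and 3.24, and hyperoxia untreated replicate 1 lies at 2.21.

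Depth did not separate the treatments, with 2642377 to 5605072 counts in the ATRA libraries and 2843227 to 5516571 in the vehicle libraries. The share of gene counts on the mitochondrial ribosomal RNAs was 10.2% to 14.045% with ATRA and 7.68% to 10.8% with vehicle. The summed level of 8 leukocyte markers was 41.4 to 49.6 CPM with ATRA and 24.1 to 31.8 CPM with vehicle in normoxia, and 94.5 to 100.5 and 67.4 to 84.8 CPM in hyperoxia. CD68 was its most abundant member, CD3E was at 0 and PTPRC had 1 count. The summed epithelial markers were at 13642 to 16700 CPM with ATRA and 11696 to 11731 CPM with vehicle in hyperoxia, where KRT7, KRT8, KRT18, KRT19 and CDH1 were called higher and AKR1B10 lower. In normoxia they overlapped, at 18068 to 21736 and 19460 to 21352 CPM. The summed level of 6 fibroblast markers in normoxia was 1.57 to 5.24 CPM with ATRA and 9.47 to 13.3 CPM with vehicle. The part of these measures in the difference was not tested.

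With both oxygen exposures in 1 model, 6 ATRA against 4 vehicle libraries with oxygen as a covariate, 2 of the 24 genes were called higher and 0 lower, beside 2.01% and 1.05% of the 13903 genes tested in that fit, which was added after the data had been seen. They were STAT2, a transcription factor of interferon signalling, and TRIM22. STAT2 had 26.5, 33.9 and 26.1 CPM in hyperoxia with ATRA and 29.9, 39.2 and 31.2 CPM in normoxia with ATRA. With vehicle it had 15.7 and 18.8 CPM in hyperoxia and 21.7 and 21.3 CPM in normoxia. All 6 ATRA libraries were above all 4 vehicle libraries. Its log2 fold change was 0.68 (SE 0.17, edgeR adjusted p = 0.0311), and that of TRIM22 was 1.80 (SE 0.47, edgeR adjusted p = 0.0392). With each oxygen exposure on its own TRIM22 had log2 fold changes of 1.74 in hyperoxia and 1.90 in normoxia, not called (edgeR adjusted p = 0.175 and 0.465). In this fit over both exposures 22 of the 24 values were positive, and the median was 0.59, against 0.00 for all genes.

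In hyperoxia, UBE2L6 rose with ATRA, with a log2 fold change of 1.17 (SE 0.28, edgeR adjusted p = 0.0281). The call was lost without hyperoxia vehicle replicate 1 (adjusted p = 0.499), hyperoxia vehicle replicate 2 (0.132) or hyperoxia ATRA replicate 2 (0.0898), in the fit of 14 libraries (0.129) and over both oxygen exposures, where the log2 fold change was 0.71 (0.107). In normoxia its log2 fold change was 0.23 (adjusted p = 0.920 from edgeR). IFIT3 had 10.2, 10.4 and 11.6 CPM with ATRA in hyperoxia and 2.40 and 5.15 CPM with vehicle, and in normoxia 7.34, 6.28 and 5.24 CPM against 2.45 and 3.75 CPM. The groups did not overlap, and the log2 fold changes of 1.47 and 0.98 were not called (adjusted p = 0.190 and 0.688 from edgeR). IFIT2 had log2 fold changes of 1.16 and 1.54, IFIT1 of 1.01 and 0.62, and IFIT5 of -0.25 and 0.34, none of them called.

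In normoxia the genes nearest to the threshold were PARP9, IRF1 and DTX3L. PARP9 (chromosome 3, 122527924 to 122564784) had 24.9, 32.3 and 21.8 CPM with ATRA and 10.8 and 10.2 CPM with vehicle, a log2 fold change of 1.32 (SE 0.36, edgeR adjusted p = 0.0817, DESeq2 adjusted p = 0.0457). The partner DTX3L, which begins within PARP9 on the opposite strand, had 38.8, 36.4 and 32.3 CPM against 20.3 and 19.1 CPM, a log2 fold change of 0.87 (adjusted p = 0.116 from edgeR). IRF1 had 28.8, 26.7 and 26.7 CPM against 17.1 and 13.04 CPM, a log2 fold change of 0.88 (adjusted p = 0.115 from edgeR). For each of the 3 the ATRA libraries were all above the vehicle libraries. The 3 were picked as nearest to the threshold in these same libraries, so this follows largely from the choice. In hyperoxia their log2 fold changes were 0.41, 0.20 and 0.33 (adjusted p between 0.588 and 0.800 from edgeR).

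IFITM1, IFITM2 and IFITM3 had log2 fold changes with ATRA of 0.81, 0.35 and 1.18 in normoxia and 1.99, 0.87 and 1.06 in hyperoxia, none of them called. IRF9 had 0.62 and 0.65, and IFIH1 had 0.02 and 1.27. The exceptions to the positive values were OAS1 (-0.47) and ISG20 (-0.54) in normoxia, and IFIT5 (-0.25), OAS3 (-0.05) and ISG20 (-0.32) in hyperoxia. OAS3 differed least, at 0.00 in normoxia (standard error 0.17).

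The interaction term asked whether ATRA acted differently in hyperoxia and normoxia. It called 0 of the 24 genes higher and 0 lower by edgeR, and DESeq2 likewise called 0, beside 0.100% and 0.0401% of all genes, and 2 genes (8.33%) had an unadjusted p under 0.05, as had 7.21% of all genes. For OAS1 the ATRA effect was 0.67 in hyperoxia and -0.47 in normoxia, a difference of 1.14 (SE 0.34, edgeR adjusted p = 0.348). For UBE2L6 the difference was 0.94 (SE 0.39, edgeR adjusted p = 0.613). The median difference was -0.01, against 0.00 for all genes, and 12 of the 24 values were positive.

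The rest of the interferon pathway was described by 83 further genes, 58 of which could be tested. In hyperoxia with vehicle 8 were higher (13.8%) and 3 lower (5.17%), beside 8.68% and 8.81% of all genes. With ATRA 8 were higher (13.8%) and 7 lower (12.1%), beside 11.4% and 11.3% of all genes. STAT3 rose in hyperoxia by 0.67 with vehicle and by 0.61 with ATRA (adjusted p = 0.00120 and 0.000332 from edgeR). SOCS3, which inhibits JAK kinases, was higher by 1.76 and 2.11, and PTPN6, a phosphatase that dampens JAK signalling, was lower by log2 fold changes of -2.34 and -0.75. The receptor chain IL10RB was higher with vehicle (0.85) and IFNAR1 with ATRA (0.54). JAK1, JAK2, TYK2, IFNAR2, IFNGR1, IFNGR2 and IFNLR1 were not called for oxygen.

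Among pathway genes outside the list of 34, the DNA sensor IFI16 was higher in hyperoxia by 2.65 with vehicle and 2.03 with ATRA, and SAMD9L, the neighbour of SAMD9, by 2.38 with vehicle. DDX60L (0.94 and 0.69) and SHISA5 (0.73 and 0.66) were higher with both treatments, and LY6E (-0.73 and -0.52) and the repressor IRF2BP2 (-0.82 and -0.42) were lower with both. PML (0.74) and LGALS3BP (0.66) were called higher with ATRA and not with vehicle, and PLSCR1 (-1.10), TRIM34 (-1.24), SAMHD1 (-0.72) and PIAS1 (-0.63) were called lower there. All of these passed an adjusted p of 0.05 in edgeR, and no difference between vehicle and ATRA was tested for them beyond the interaction term, which called 0 of the 58.

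With ATRA in normoxia, 3 of the 58 pathway genes were higher (5.17%) and 0 lower, beside 0.816% and 0.435% of all genes. PLSCR1, a scramblase induced by interferon, had 63.98, 85.1 and 67.7 CPM against 24.1 and 25.9 CPM with vehicle, a log2 fold change of 1.52 (SE 0.21, edgeR adjusted p = 0.000212). JAK1, a kinase of the interferon receptors, had 453.9, 525.5 and 420.6 CPM against 306.1 and 289.1 CPM, a log2 fold change of 0.65 (SE 0.12, edgeR adjusted p = 0.00608). The ATRA libraries of both genes did not overlap those with vehicle. In hyperoxia 2 were higher (3.45%) and 0 lower, beside 1.52% and 0.695% of all genes, namely PTPN6 (1.57, adjusted p = 0.00448) and LGALS3BP (0.78, adjusted p = 0.0105, both from edgeR).

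Within sets of consecutive library numbers, which the labels do not describe as batches, the log2 difference of OAS1 between hyperoxia and normoxia was -2.01 and -2.20 with vehicle and -0.69, -0.77 and -1.48 with ATRA. That of OAS3 was -0.75 and -1.31 with vehicle and -1.39, -0.58 and -1.28 with ATRA, and that of IFITM2 was -1.20 and -1.79, and -0.77, -1.28 and -1.33. TRIM22 had 2.47 and 1.19, and 2.40, 1.60 and 2.28. A pseudocount of 1 CPM was added to each value, and the normoxia library behind the 2.47 of TRIM22 had 0 counts. These 4 genes were chosen because the same libraries called them. Their oxygen groups did not overlap within either treatment, so the direction in each set was fixed beforehand and adds no support.

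Some of the genes share their position with others, and the sources used here do not say whether the counting used strand. IFIT1, IFIT2 and IFIT3 lie within the span of LIPA on the opposite strand, and IFIT5 overlaps it at its start. LIPA is a gene with 4626 counts over the 15 libraries, against 184 to 1225 for these genes, and shares 65 exon bases with IFIT2 and 94 with IFIT3. PARP9 and DTX3L share 139 exon bases. LOC105374071 held 40.2% as many counts as PARP9, and LOC102723458 held 11.6% as many as HERC6. The counts of these genes are uncertain to that extent, as are those of the paralogous OAS, IFIT and IFITM genes.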

How the data were processed

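RNA from A549 cells was sequenced from stranded libraries. Per the study's methods and processing notes, reads were trimmed with Trimmomatic 0.38, those under 50 nt were discarded, HISAT2 placed the rest on hg38, and HTSeq gave a count for each gene symbol. The values the authors deposited are raw counts, without normalization. The annotation release and the strand setting of the counting are not given in the sources used here. Between 48.6% and 55.3% of the reads per library fell on no gene and were left out.

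The main tool was edgeR 4.0.16 (R 4.3.3). Low counts were filtered with filterByExpr (minimum count 10, minimum total 15), leaving 14957 genes. TMM factors scaled the libraries, and 10 libraries in 4 groups entered 1 quasi-likelihood fit. P-values were adjusted over all genes tested by the Benjamini-Hochberg method. Untreated libraries were compared in a fit of 14 libraries in 6 groups. CPM values were scaled by TMM, those of untreated libraries within that fit, and log2 CPM used a prior count of 2. The members, the pathway and marker lists and the tests were chosen with earlier results of these data known. Every member is named, and other pathway genes where called in 1 of the 4 comparisons or where they are interferon ligands, receptors, kinases or STATs, except for an item that is not reported here. Replicate pairs differed by more than counting noise (chi-square per degree of freedom at least 3.91). A library whose labels conflict was not assigned to a group. The procedure was checked on simulated data for hyperoxia against normoxia with vehicle. It recovered 53% of 2-fold and 86% of 4-fold changes, and 6.71% of its calls were false. Alternatives were DESeq2 1.42.0, RLE size factors, no filter, other sets of libraries, a block of library sets and leaving out each library, of which the fit over both oxygen exposures and those leaving out untreated libraries were chosen after seeing the data. Library sets were inferred from library numbers. Positions and promoters came from RefSeq (GRCh38.p14) and transcript lengths from GENCODE 44. Plots were drawn with matplotlib 3.10.9.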

Additional observations from a re-analysis of the deposited data

How the results depend on the processing

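With hyperoxia against normoxia, the lower calls of OAS1, OAS3 and IFITM2 numbered 3 in every fit that left out a library, both with vehicle and with ATRA. The shares of all genes called are given above for the main fits and for the fit over both oxygen exposures. They are not given for the other fits below, so counts there show only how calls depend on the fit. Higher calls were fewer. With vehicle they numbered 0 in the fit of 14 libraries, and between 0 and 3 when a library was left out. With ATRA they numbered 1 with RLE size factors, without the filter, in the fit of 14 libraries, with vehicle and untreated libraries pooled, with only the groups compared and with DESeq2, and 1 to 3 with a library left out. For ATRA against vehicle in normoxia, higher calls numbered 2 without the filter, 2 with pooled controls, 2 over both oxygen exposures, 1 with only the groups compared and 1 with DESeq2, and 0 to 1 with a library left out, while lower calls stayed at 0. In hyperoxia they numbered 0 in the fit of 14 libraries, 2 over both oxygen exposures and 0 to 1 with a library left out, with 0 lower calls. The interaction gave 0 calls in all of these fits. The median log2 fold change of the genes for oxygen with vehicle was 0.35 with pooled controls, 0.51 in untreated libraries, 0.10 with ATRA as a covariate, and -0.0390 to 0.24 with a library left out. With ATRA it was -0.0650 to 0.0714, and it was -0.16 to 0.15 for the interaction, so the sign of these 3 medians depends on single libraries. The medians for ATRA stayed positive, at 0.40 to 0.65 in normoxia and 0.50 to 0.66 in hyperoxia with a library left out, 0.48 and 0.54 with library sets as a block, and 0.71 with pooled controls in hyperoxia. In untreated cells 0 to 5 genes were called higher and 1 to 9 lower, with a median of -0.38 to 0.56, when a library was left out, beside 423 to 2455 and 546 to 4909 of all genes, and IFIT2 reversed to -5.59 without hyperoxia untreated replicate 2, against 2.07 without replicate 1. The cause was not tested. No paired analysis was possible because the labels give no replicate numbers shared between groups, and the block used above rests on library sets inferred from library numbers. Groups of 2 or 3 libraries, and 3 counts at 0.535 to 1.14 CPM, limit what can be detected.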

Other observations

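A library whose title names hyperoxia and whose treatment label names adipogenic differentiation entered no comparison. It had 19.2 CPM of OAS1, 59.8 of OAS3, 10.9 of IFITM2, 32.8 of IRF1, 18.3 of STAT2 and 14.04 of UBE2L6, scaled by its counts on genes alone. IFI44, IFI44L, BST2 and MX2 had 0 counts in it as well.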
